A study of Homo sapiens with 4 samples.

Results

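The integrated stress response of LNCaP cells, and FGF21 and GDF15, a pair of hormones that stressed cells secrete, were followed through 9 genes: the transcription factors ATF4 and DDIT3, the pseudokinase gene TRIB3, the metabolic and stress genes ASNS, PSAT1, CHAC1 and DDIT4, and the hormone genes FGF21 and GDF15. LNCaP, an established line of human prostate cancer cells from a lymph node metastasis, keeps traits of luminal prostate epithelium. RNA was sequenced from 2 libraries of cells transiently given a CRYM expression vector and 2 libraries of cells given the empty vector. Both groups were cells of passage 22 in medium with 10% serum, both were transfected with 12 µL of lipid reagent per 2500 ng of plasmid, and RNA was isolated after 48 h. The labels say that a fluorescent protein was monitored, and they do not give the share of cells that took up the plasmid. CRYM encodes mu-crystallin, which binds thyroid hormone and reduces ketimines. Rows were chosen by gene name where a table gives one, and otherwise by the best overlap with the known hg19 span of the gene, with a ratio of overlap to union of at least 0.4. This found 8 of the 9 genes among 52335 loci present in all 4 libraries, of which 10108 were tested. GDF15 had no row that met the rule, and the locus that contains it is described separately at the end of the genes.

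In the integrated stress response, kinases that sense amino acid shortage, misfolded protein in the endoplasmic reticulum, double-stranded RNA or heme deficiency phosphorylate the translation factor eIF2. General protein synthesis then slows, while the mRNA of ATF4 is translated more. ATF4 pairs with C/EBP-family proteins on composite DNA elements and induces genes for amino acid synthesis and uptake, for charging of tRNA, and for damping or ending the response. FGF21 and GDF15 are secreted proteins known as markers of this response, and they act on distant cells through FGFR with beta-klotho (FGF21) and through GFRAL with RET (GDF15).

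The composite element recognised by ATF4 with C/EBP proteins has the core letters TGATGNAA, where N is any base. A search on both strands of the 300 bases around the annotated start (250 before and 50 after, RefSeq, GRCh38.p14) found it at 3 of the 9 genes, namely ASNS, CHAC1 and FGF21. All 9 had a promoter entry. The core was present at 1217 of 27305 symbols with an entry, or 4.46%, and at 18 of 49 other genes of the pathway that had one. The windows that hold it are shown, and capitals mark the matched letters, read 5′ to 3′ along the strand of the gene. The windows without it are those of ATF4, DDIT3, PSAT1, TRIB3, DDIT4 and GDF15. Of the genes with the core, the log2 differences given below were -0.59 for ASNS, -1.15 for CHAC1 and -1.16 for FGF21. Of those without it, they were -0.30 for ATF4, -0.29 for DDIT3 and -0.48 for PSAT1. TRIB3 was at -0.88, DDIT4 at -1.10 and the locus containing GDF15 at -1.82, also without it. A link between the core and the log2 difference was not tested. The ASNS window, chr7:97872359-97872658 on the minus strand, has the core on the gene's own strand, 68 bases before the start. The CHAC1 window, chr15:40953221-40953520 on the plus strand, has it on the opposite strand, 209 bases before the start. The FGF21 window, chr19:48755274-48755573 on the plus strand, also has it on the opposite strand, 54 bases before the start. CHAC1 and FGF21 share the same letters. A match describes the letters only, and binding was not measured here.
ASNS: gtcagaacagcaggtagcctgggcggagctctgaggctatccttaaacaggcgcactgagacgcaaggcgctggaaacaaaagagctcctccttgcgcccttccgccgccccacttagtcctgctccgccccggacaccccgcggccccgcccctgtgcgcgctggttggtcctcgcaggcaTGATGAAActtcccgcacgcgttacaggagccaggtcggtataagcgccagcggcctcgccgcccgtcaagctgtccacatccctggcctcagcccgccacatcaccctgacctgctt
CHAC1: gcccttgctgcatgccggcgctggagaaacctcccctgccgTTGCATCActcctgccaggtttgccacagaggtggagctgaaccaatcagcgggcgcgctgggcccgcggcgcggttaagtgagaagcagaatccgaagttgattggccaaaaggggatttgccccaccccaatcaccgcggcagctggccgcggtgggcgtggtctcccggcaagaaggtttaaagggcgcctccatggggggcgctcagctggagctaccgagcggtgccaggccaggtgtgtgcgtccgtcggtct
FGF21: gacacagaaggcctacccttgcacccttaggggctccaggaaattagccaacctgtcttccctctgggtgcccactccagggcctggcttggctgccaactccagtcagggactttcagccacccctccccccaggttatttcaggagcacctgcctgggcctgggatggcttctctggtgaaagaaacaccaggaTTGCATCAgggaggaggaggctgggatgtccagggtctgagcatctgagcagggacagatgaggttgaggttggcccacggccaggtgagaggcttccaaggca

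Levels are given as deposited, in FPKM, a count of fragments scaled by transcript length and by the mapped fragments of the library. By an estimate from loci of 60 bp, depth differed between libraries. Relative to empty vector library 1 it was 0.842 and 1.07 in the CRYM libraries and 1.15 in empty vector library 2, and the absolute depth is unknown. CRYM itself had 65.3 and 72.5 FPKM in the CRYM libraries and 1.17 and 0.977 FPKM in the empty vector libraries, a 64.1-fold higher mean (log2 difference 5.07, limma adjusted p = 0.00248), so the labels hold for the transfected gene. Of 7 tested luminal prostate markers, 4 were lower and 2, ACPP and FOLH1, higher in CRYM cells (FOLH1 below zero and not past after rescaling to the same total, which moved the median locus to -0.52), and their summed FPKM was 1645 and 1675 in CRYM cells against 2857 and 2775 in empty vector cells. For scale, 17.7% of all tested loci were lower and 15.7% higher in CRYM cells. KLK3, the prostate-specific antigen, had 863.3 and 900.4 FPKM in CRYM cells against 1939 and 1874 FPKM in empty vector cells. Of the fibroblast markers VIM was higher in CRYM cells (23.9 and 23.7 FPKM against 12.3 and 9.96 FPKM in empty vector cells), COL1A1 did not pass, and the 3 identified members summed to 29.6 and 30.04 FPKM in CRYM cells against 16.6 and 14.4 FPKM in empty vector cells. The immune markers PTPRC, CD3E and LYZ together reached 0.483 and 0.392 FPKM in CRYM cells and 0.397 and 0.349 FPKM in empty vector cells, the basal marker TP63 had 0.0761 and 0.0427 FPKM in CRYM cells and 0.0204 and 0.0539 FPKM in empty vector cells, and the endothelial marker VWF had 2.47 and 1.80 FPKM in CRYM cells and 1.99 and 2.11 FPKM in empty vector cells. The part of the luminal and fibroblast markers in the results below was not tested. Although the labels speak of biological replicates, separate cultures are not stated, and p-values here measure no more than the spread between the libraries.

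All 8 genes found had both CRYM libraries below both empty vector libraries, a pattern that 35.3% of all tested loci shared. By limma on log2(FPKM + 1) with adjustment over all 10108 loci, 6 of the 8 were lower in CRYM cells, 0 were higher, and ATF4 and DDIT3 did not pass. FGF21 is among the 6 but met the filter only through the empty vector libraries; with a filter on the mean FPKM, which leaves it out, 5 of 7 were lower. Over all tested loci, 17.7% were lower and 15.7% higher. The median log2 difference (CRYM minus empty vector) was -0.73 over the 8 genes and 0.01 over all tested loci, whose middle range ran from -0.21 at the lower quartile to 0.24 at the upper. Without FGF21, the middle gene of the remaining 7 was ASNS, at -0.59. In bulk RNA, fewer cells with a transcript and less of it per cell cannot be told apart. With any 1 library left out, in turn CRYM 1, CRYM 2, empty vector 1 and empty vector 2, limma called 0 loci, with a smallest adjusted p of 0.0551, 0.0589, 0.0708 and 0.0648, and 3635, 3822, 3696 and 3795 loci at an unadjusted p under 0.05. The calls therefore rest on all 4 libraries.

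**Figure D1:**
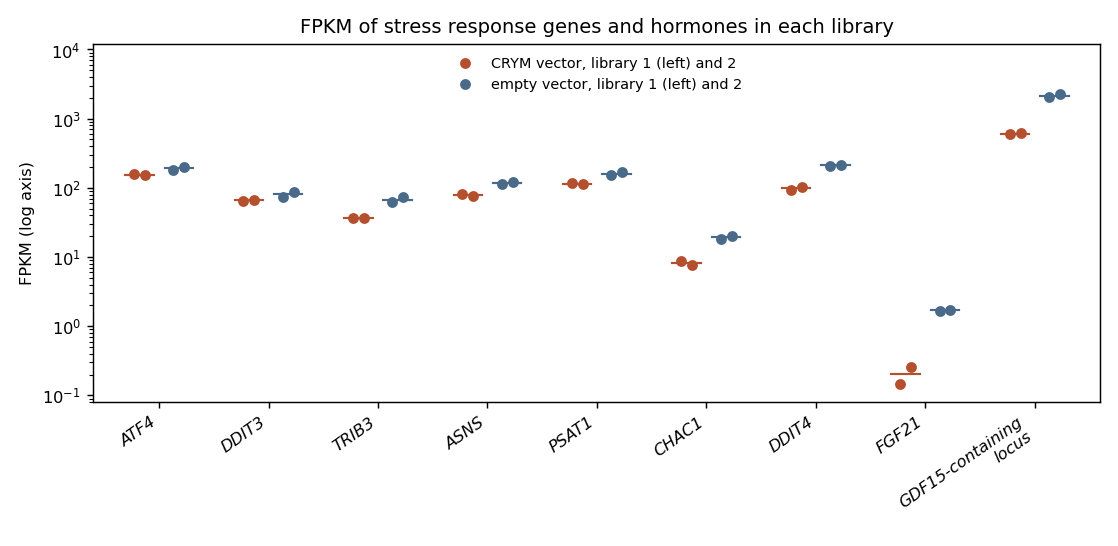
FPKM on a log axis of each gene in the 2 CRYM libraries (left of each pair of groups) and the 2 empty vector libraries; points are libraries and lines are group means. At every gene shown both CRYM libraries lie below both empty vector libraries, with the widest gap at FGF21 (0.144 and 0.260 FPKM in CRYM cells against 1.67 and 1.71 FPKM in empty vector cells).

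Among the regulators, the transcript of ATF4, the factor at the centre of the response, had 156.5 and 154.4 FPKM in CRYM cells and 181.7 and 201.6 FPKM in empty vector cells. Both CRYM libraries were lower and the groups did not overlap. The means were 155.4 ± 1.48 FPKM in CRYM cells and 191.7 ± 14.1 FPKM in empty vector cells (SD, n = 2 each), a 1.23-fold difference with a log2 difference of -0.30 (SE 0.0634) that did not pass (limma adjusted p = 0.0505). It passed with a log2 difference of -0.37 once libraries were rescaled by their median ratio, and had a log2 difference of -0.13 with quantile normalization. Its locus (hg19 chromosome 22, 39915700 to 39918691) carries no name in the tables and had an overlap to union of 0.697 with the span used. Since ATF4 is controlled mainly at translation, its mRNA is only a part of its regulation.

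DDIT3 encodes CHOP, a bZIP factor induced by ATF4 that promotes cell death under lasting stress. It had 65.4 and 67.3 FPKM in CRYM cells and 74.6 and 88.1 FPKM in empty vector cells. The groups did not overlap, but the empty vector libraries differed from each other more than the CRYM libraries did. The means were 66.3 ± 1.35 FPKM in CRYM cells and 81.3 ± 9.51 FPKM in empty vector cells (SD, n = 2 each), with a log2 difference of -0.29 (SE 0.0986) that did not pass (limma adjusted p = 0.125). The DDIT3 locus (chromosome 12, 57910371 to 57914300) shares 982 bases with the MARS locus, and use of the strand in counting was not given in the sources used here. It also overlaps MIR616 and short unnamed loci that differ between libraries, with up to 17741 FPKM in empty vector library 2.

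TRIB3, a pseudokinase that binds ATF4 and DDIT3 and restrains their activity, had 36.3 FPKM in each CRYM library and 62.7 and 72.9 FPKM in the empty vector libraries. It was lower in both CRYM libraries. TRIB3 fell 1.87-fold, with 36.3 ± 0.0309 FPKM in CRYM cells and 67.8 ± 7.19 FPKM in empty vector cells (SD, n = 2 each) and a log2 difference of -0.88 (SE 0.0887, limma adjusted p = 0.0158). Its locus (chromosome 20, 361261 to 378205, with another end in empty vector library 2) is 0.488 of the width that GENCODE v29 gives the gene. TRIB3 thus fell while the transcripts of the pair of factors it binds did not pass; the difference between TRIB3 and these genes was not tested.

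Of the metabolic targets, ASNS makes asparagine from aspartate and is a textbook ATF4 target. ASNS had 81.1 and 75.2 FPKM in CRYM cells and 113.7 and 122.3 FPKM in empty vector cells. Both CRYM libraries lay below both empty vector libraries, and ASNS fell 1.51-fold, at 78.1 ± 4.18 FPKM in CRYM cells and 118.0 ± 6.14 FPKM in empty vector cells (SD, n = 2 each; log2 difference -0.59, SE 0.0638, limma adjusted p = 0.0174). Its locus is chromosome 7, 97481430 to 97501854. Within it lie short loci that differ between libraries, most of them unnamed, with up to 22282 FPKM in empty vector library 1. How reads there were divided is uncertain. PSAT1, the aminotransferase of serine synthesis, had 118.1 and 112.1 FPKM in CRYM cells and 155.2 and 166.9 FPKM in empty vector cells. It fell 1.40-fold, at 115.1 ± 4.23 FPKM in CRYM cells and 161.1 ± 8.28 FPKM in empty vector cells (SD, n = 2 each; log2 difference -0.48, SE 0.0550, limma adjusted p = 0.0184). Its locus is chromosome 9, 80912059 to 80945009. ASNS and PSAT1 have processed copies elsewhere in the genome, and so does ATF4, and reads shared with a copy may have been split. The copies of ATF4 and PSAT1 in the tables had at most 0.0656 FPKM in any library, and of those of ASNS only ASNSP5 passed 1 FPKM, with 1.49 and 3.51 FPKM in CRYM cells and 2.48 and 2.29 FPKM in empty vector cells.

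CHAC1, which degrades glutathione and is induced by ATF4, had 8.72 and 7.63 FPKM in CRYM cells and 18.4 and 20.3 FPKM in empty vector cells. The groups were far apart relative to their spread, and CHAC1 fell 2.36-fold, with 8.17 ± 0.768 FPKM in CRYM cells and 19.3 ± 1.34 FPKM in empty vector cells (SD, n = 2 each; log2 difference -1.15, SE 0.0927, limma adjusted p = 0.0117). The deposited intervals of CHAC1 ran from 7.90 to 9.53 and 7.003 to 8.26 FPKM in the CRYM libraries and from 17.3 to 19.5 and 19.2 to 21.4 FPKM in the empty vector libraries. They do not meet between the groups. Its locus is chromosome 15, 41245160 to 41248710, with another end in CRYM library 2, and its promoter carries the core TTGCATCA shown above.

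DDIT4 encodes REDD1, an inhibitor of mTORC1 that stress, hypoxia and glucocorticoids also induce. It had 94.3 and 101.8 FPKM in CRYM cells and 208.6 and 212.5 FPKM in empty vector cells. DDIT4 fell 2.15-fold, with 98.1 ± 5.28 FPKM in CRYM cells and 210.6 ± 2.76 FPKM in empty vector cells (SD, n = 2 each; log2 difference -1.10, SE 0.0490, limma adjusted p = 0.00610). No core was found in the DDIT4 promoter window. Its locus (chromosome 10, 74033678 to 74035794) shares 1066 bases with RP11-442H21.2, which had 152.0 and 162.1 FPKM in CRYM cells and 305.1 and 310.4 FPKM in empty vector cells. How reads in the shared bases were divided is uncertain.

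Of the hormones, FGF21 was barely detected in CRYM cells. It had 0.144 and 0.260 FPKM there and 1.67 and 1.71 FPKM in empty vector cells, with deposited intervals of 0.0284 to 0.260 and 0.135 to 0.385 FPKM in the CRYM libraries and of 1.35 to 1.99 and 1.41 to 2.02 FPKM in the empty vector libraries. If 2 SD of counting error lie on each side of a value, its interval stands for 6 and 17 fragments in the CRYM libraries and for 108 and 125 fragments in the empty vector libraries. The means were 0.202 ± 0.0819 FPKM in CRYM cells and 1.69 ± 0.0298 FPKM in empty vector cells (SD, n = 2 each), an 8.37-fold lower mean FPKM in CRYM cells. FGF21 fell by 1.16 on the log2(FPKM + 1) scale (SE 0.0871, limma adjusted p = 0.0107), a scale that understates the change of so low a gene, and by 2.59 with a pseudocount of 0.1. FGF21 reached the level for testing only through the empty vector libraries, so it had to differ to be tested, and its call adds no support. Its locus is chromosome 19, 49258816 to 49261587.

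The genes whose pattern over the 4 libraries was closest to that of FGF21, among 799 named protein-coding loci, included E2F1 and RASD1. The measure was the summed absolute distance of centred log2(FPKM + 1) values, and it was 0.195 for E2F1 and 0.222 for RASD1. E2F1, a cell cycle transcription factor, had 10.4 and 10.8 FPKM in CRYM cells against 23.9 and 22.7 FPKM in empty vector cells. RASD1, a Ras-like gene induced by dexamethasone, had 2.58 and 2.93 FPKM in CRYM cells against 7.95 and 8.22 FPKM in empty vector cells. With 2 libraries per group, the measure compares little more than the step between groups, on the scale that understates the change of FGF21. The mean FPKM of FGF21 differed 8.37-fold, so a near pattern is not a near fold. FGF21 also met the filter only through the empty vector libraries.

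For GDF15 the rule found no row, since the best row is wider than the span used and had an overlap to union of 0.207 with it. That row (chromosome 19, 18485541 to 18499986) is 14446 bases wide, the width GENCODE v29 gives GDF15, and lies between RN7SL513P and LRRC25 as GDF15 does there; it also contains MIR3189. The GDF15-containing locus had 596.1 and 621.6 FPKM in CRYM cells and 2034 and 2262 FPKM in empty vector cells. It fell 3.53-fold, with 608.9 ± 18.1 FPKM in CRYM cells and 2148 ± 160.9 FPKM in empty vector cells (SD, n = 2 each; log2 difference -1.82, SE 0.0691, limma adjusted p = 0.00556). The log2 difference of this locus ranked 139 of 10108 from the lowest, against 253 for FGF21, 259 for CHAC1, 277 for DDIT4 and 380 for TRIB3. It is not counted among the 6 genes that fell.

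**Figure D2:**
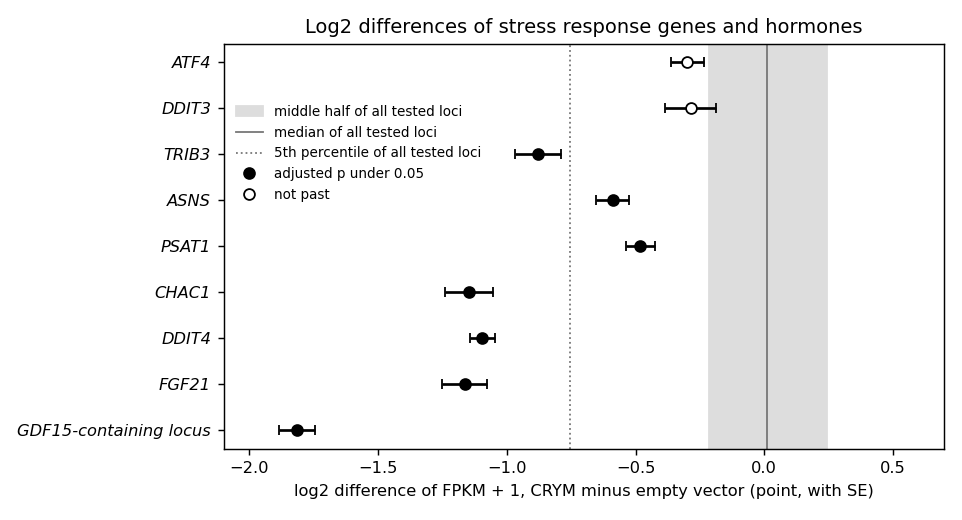
Log2 differences of FPKM + 1 (CRYM minus empty vector, with SE, n = 2 per group) for the 8 genes and the GDF15-containing locus, with the quartiles (band), median and 5th percentile (-0.75) of all 10108 tested loci. ATF4 and DDIT3 (open) lie just below the band, while TRIB3, CHAC1, DDIT4, FGF21 and the GDF15-containing locus lie below the 5th percentile.

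The same comparison was made for the other genes of the pathway, from 7 lists. Of 67 listed genes 62 were identified and 54 tested, of which 30 were lower, 3 were higher and 21 did not pass, with a median log2 difference of -0.35. These counts, and those of each list below, stand beside 17.7% lower and 15.7% higher of all tested loci, as above. The lists were chosen with earlier results of these data known, so the gap to those shares adds no independent support. After rescaling the libraries to the same total FPKM, 48 were lower and 0 higher, beside 6270 lower and 298 higher of the 10108 tested loci. At several genes called lower the implied fragments did not fall, as given under other observations. Most of the tested enzymes, transporters and tRNA synthetases were lower, and most of the eIF2 kinases and subunits did not pass; the difference between lists was not tested.

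Upstream, among 9 tested genes of the eIF2 kinases, subunits and phosphatase, 2 were lower, 1 was higher and 6 did not pass, with a median log2 difference of 0.06. These counts lie near the shares over all tested loci, 17.7% lower and 15.7% higher. Rescaling the libraries to the same total FPKM moved the median of all loci to -0.52, and the middle gene of this list, EIF2AK4, then lay 0.01 above that median. EIF2AK3, the kinase PERK, had 12.0 and 10.9 FPKM in CRYM cells and 8.50 and 8.45 FPKM in empty vector cells and was higher (log2 difference 0.39, limma adjusted p = 0.0305), and was at -0.16 after that rescaling, or 0.36 above the median locus. The other kinases did not pass, and the amino acid sensor EIF2AK4 had log2 differences of 0.06 as reported and -0.00276 with the median ratio. EIF2S2, the beta subunit of eIF2, fell 1.56-fold, with 41.2 ± 2.57 FPKM in CRYM cells and 64.2 ± 5.73 FPKM in empty vector cells. Its implied fragments went the other way, with 2777 and 8107 in CRYM cells and 3275 and 2677 in empty vector cells. PPP1R15B, a phosphatase subunit that reverses the phosphorylation, fell 1.23-fold, with 20.96 ± 0.203 FPKM in CRYM cells and 25.8 ± 1.24 FPKM in empty vector cells (SD, n = 2 each; limma adjusted p of 0.0265 for EIF2S2 and 0.0322 for PPP1R15B). EIF2S1, the subunit that is phosphorylated, had 133.4 and 129.7 FPKM in CRYM cells and 39.2 and 205.4 FPKM in empty vector cells, so its empty vector libraries lay on both sides of the CRYM libraries.

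Of 6 tested transcription factors that pair with ATF4 or respond to it, 3 were lower and 3 did not pass. JDP2, a bZIP repressor, fell 2.40-fold, with 8.79 and 9.47 FPKM in CRYM cells against 21.9 and 22.0 FPKM in empty vector cells (limma adjusted p = 0.00577). CEBPB, a C/EBP partner, fell 1.60-fold, with 12.0 and 13.7 FPKM in CRYM cells against 19.2 and 22.0 FPKM in empty vector cells (limma adjusted p = 0.0331). NUPR1, a stress-induced chromatin protein, fell 1.35-fold, with 157.9 and 163.3 FPKM in CRYM cells against 203.6 and 231.0 FPKM in empty vector cells (limma adjusted p = 0.0382). All 3 genes had groups that did not overlap. ATF3 had 17.7 ± 0.271 FPKM in CRYM cells and 21.9 ± 2.22 FPKM in empty vector cells (SD, n = 2 each) and did not pass (limma adjusted p = 0.0934).

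Of 9 tested enzymes of amino acid and one-carbon metabolism, 7 were lower, 0 were higher and 2 did not pass, with a median log2 difference of -0.58. PCK2, the mitochondrial enzyme that makes phosphoenolpyruvate, had 69.2 and 67.8 FPKM in CRYM cells against 139.4 and 139.8 FPKM in empty vector cells, a 2.04-fold fall (limma adjusted p = 0.00342). GPT2, the mitochondrial alanine aminotransferase, fell 1.96-fold, with 29.5 and 30.2 FPKM in CRYM cells against 57.0 and 59.8 FPKM in empty vector cells. MTHFD2, a mitochondrial folate enzyme, fell 2.08-fold, with 66.0 and 56.2 FPKM in CRYM cells against 121.8 and 132.1 FPKM in empty vector cells. These 3 genes act in mitochondria, and the cytosolic aspartate aminotransferase GOT1 fell as well, by 1.52-fold, with 27.3 ± 0.200 FPKM in CRYM cells and 41.3 ± 1.52 FPKM in empty vector cells (SD, n = 2 each). PSPH, the last enzyme of serine synthesis after PSAT1, fell 1.29-fold and ALDH18A1 of proline synthesis 1.24-fold. The limma adjusted p of GPT2, MTHFD2, GOT1, PSPH and ALDH18A1 was 0.00565 to 0.0172. The transsulfuration enzyme CTH had 5.87 ± 0.643 FPKM in CRYM cells and 7.76 ± 0.555 FPKM in empty vector cells (SD, n = 2 each), and CBS also did not pass, with a log2 difference of -0.12 that was 0.05 with quantile normalization.

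Of 8 tested amino acid transporters, 5 were lower, 1 was higher and 2 did not pass. SLC3A2, the shared heavy chain, fell 1.31-fold, with 79.3 and 80.6 FPKM in CRYM cells against 100.2 and 109.1 FPKM in empty vector cells. Its partners fell too: SLC7A11, the cystine transporter, fell 1.55-fold, with 15.4 and 15.1 FPKM in CRYM cells against 21.9 and 25.4 FPKM in empty vector cells, and SLC7A5, a carrier of large neutral amino acids, fell 1.47-fold, with 2.59 and 2.67 FPKM in CRYM cells against 3.96 and 3.80 FPKM in empty vector cells. SLC1A5, the glutamine carrier, fell 2.06-fold, with 41.7 and 33.9 FPKM in CRYM cells against 87.6 and 68.1 FPKM in empty vector cells, and SLC7A1, a carrier of cationic amino acids, fell 1.22-fold. The limma adjusted p of these 5 genes was 0.0202 to 0.0389. SLC38A2, another neutral amino acid carrier induced by amino acid shortage, went the other way, with 79.5 and 75.2 FPKM in CRYM cells against 66.4 and 66.5 FPKM in empty vector cells (log2 difference 0.22, limma adjusted p = 0.0361), and it was at -0.38 once libraries were rescaled to the same total, or 0.14 above the median locus at that scaling.

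All 12 tRNA synthetase genes were tested, and 9 were lower, 0 were higher and 3 did not pass, with a median log2 difference of -0.34. YARS, which charges tyrosine tRNA, fell 2.33-fold, with 37.4 and 35.7 FPKM in CRYM cells against 87.2 and 83.2 FPKM in empty vector cells (limma adjusted p = 0.00533). CARS, for cysteine, fell 1.62-fold and GARS, for glycine, 1.61-fold, with 24.2 ± 0.0877 FPKM for CARS and 81.1 ± 1.105 FPKM for GARS in CRYM cells against 39.3 ± 0.897 FPKM for CARS and 130.4 ± 3.81 FPKM for GARS in empty vector cells (SD, n = 2 each). TARS, MARS and WARS fell 1.22-fold to 1.29-fold. The limma adjusted p of CARS, GARS, TARS, MARS and WARS was 0.00610 to 0.0180. AARS and LARS did not pass, at -0.14 and -0.05, and were just above zero (0.01 and 0.03) with quantile normalization. The MARS locus overlaps that of DDIT3.

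Among 8 tested stress effectors, 4 were lower, 1 was higher and 3 did not pass. GADD45A, a growth arrest gene, fell 2.26-fold, with 13.1 and 12.2 FPKM in CRYM cells against 27.3 and 30.1 FPKM in empty vector cells (limma adjusted p = 0.00895). HERPUD1, of protein degradation at the endoplasmic reticulum, fell 1.39-fold, VLDLR, a lipoprotein receptor, 1.42-fold and XPOT, the exporter of tRNA from the nucleus, 1.27-fold (limma adjusted p of 0.0140, 0.0148 and 0.0385 in that order). KLHL24, a ubiquitin ligase adaptor, was higher, with 14.98 and 13.4 FPKM in CRYM cells against 7.46 and 8.57 FPKM in empty vector cells (log2 difference 0.75, limma adjusted p = 0.0224), and was at 0.20 and not past after rescaling to the same total, or 0.72 above the median locus. STC2, a secreted glycoprotein, had 24.8 and 53.5 FPKM in CRYM cells and 82.3 and 99.97 FPKM in empty vector cells and did not pass, its CRYM libraries being far apart.

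The receptors for the hormones were low. FGFR4, the highest of the 2 tested FGF receptors, had 2.89 and 6.21 FPKM in CRYM cells and 2.65 and 2.27 FPKM in empty vector cells and did not pass (limma adjusted p = 0.294). FGFR1 was not tested, since its best row had 0.841 of the GENCODE v29 width. That row had 3.75 and 4.15 FPKM in CRYM cells and 4.35 and 3.23 FPKM in empty vector cells. KLB, the beta-klotho co-receptor that FGF21 needs, had 0.172 and 0.295 FPKM in CRYM cells and 0.203 and 0.249 FPKM in empty vector cells, below the level for testing. GFRAL and RET, the receptor and co-receptor of GDF15, averaged 0.0281 and 0.0920 FPKM in CRYM cells and 0.0146 and 0.0667 FPKM in empty vector cells in that order.

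**Figure D3:**
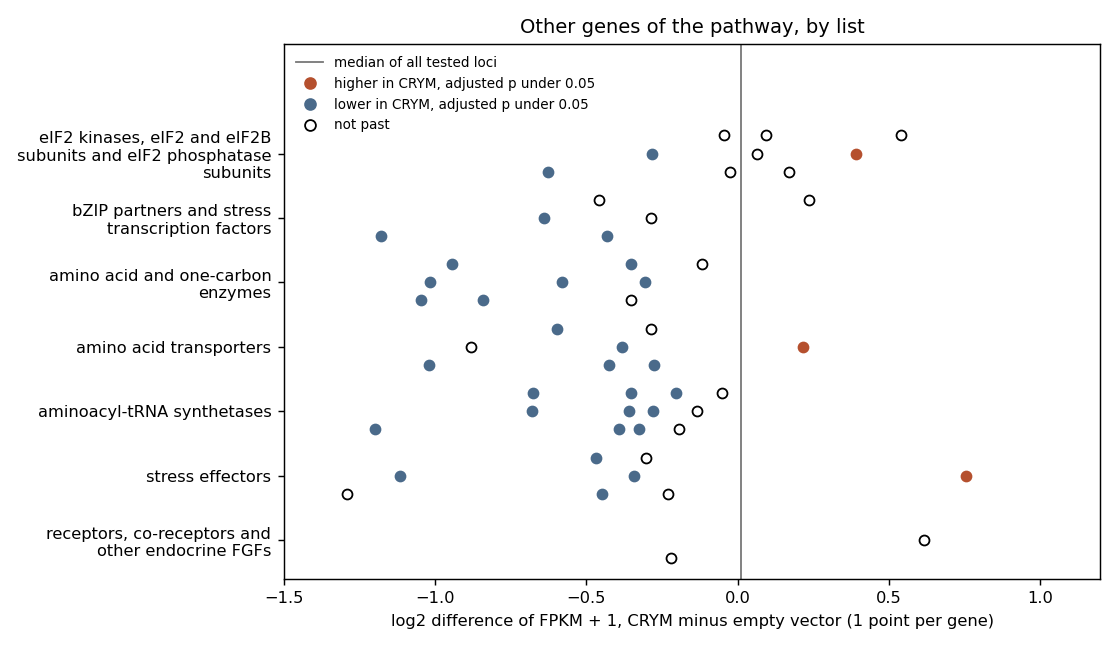
Log2 difference of FPKM + 1 (CRYM minus empty vector) of each of the 54 tested pathway genes outside the 9, by list, 1 point per gene, with filled points past an adjusted p of 0.05 by limma and the median of all tested loci as a line. Of the points 30 are lower and 3 higher, and the aminoacyl-tRNA synthetases and the enzymes lie wholly to the left of the line, though CBS, AARS and LARS were above zero with quantile normalization.

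The scaling of the libraries bears on how far these differences reach. Summed over all rows the tables held more FPKM in the CRYM libraries (12658203 and 12091877) than in the empty vector libraries (8349133 and 7917747), and rescaling each library to the same total moved the median locus to a log2 difference of -0.52. Over all loci the call then went to 298 higher and 6270 lower, in place of 1586 higher and 1793 lower, and to 1218 higher and 2282 lower with rescaling by the median ratio. All 8 genes were lower after rescaling to the same total. Relative to the shifted median their log2 differences were -0.38 for ATF4, -0.36 for DDIT3, -0.95 for TRIB3, -0.67 for ASNS, -0.56 for PSAT1, -1.19 for CHAC1, -1.18 for DDIT4 and -0.91 for FGF21. TRIB3, ASNS, PSAT1, CHAC1 and DDIT4 also passed with quantile normalization, with log2 differences from -0.33 for PSAT1 to -1.16 for CHAC1. The fragments implied by the deposited intervals did not fall at TRIB3 and PSAT1, with ratios of CRYM over empty vector of 1.10 and 1.08 at equal depth. At ASNS and DDIT4 they fell less far than FPKM, with ratios of 0.891 and 0.857, as given under other observations.

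**Figure D4:**
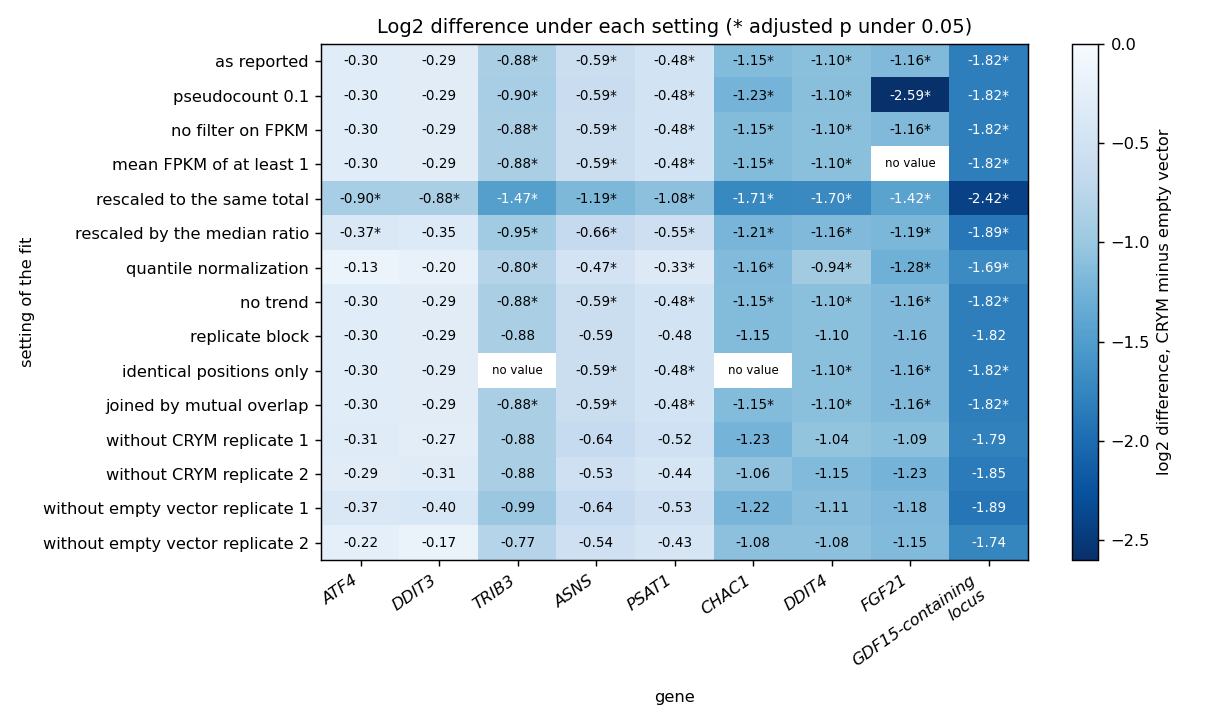
Log2 difference (CRYM minus empty vector) of each gene and of the GDF15-containing locus under each setting of the fit, with an asterisk where the limma adjusted p is under 0.05 and no value where the gene has no tested row. Every value is below zero, and no asterisk stands in the replicate block or in the 4 fits that leave out 1 library.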

How the data were processed

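RNA from 4 libraries of transfected LNCaP cells was sequenced as 50 bp single reads after a stranded mRNA preparation, per the labels' protocols. Each deposited table lists, per the file headers, an FPKM for every locus with its lower and upper bounds and a status. The submitters' processing notes name Cuffdiff, Cufflinks 2.2.1, TopHat2 2.1.1 and Bowtie2 2.2.9 and the builds GRCh37 and hg19; what each did, and use of the strand in counting, was not given in the sources used here.

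Most loci have no gene name in the tables. The 9 genes and the lists were chosen with earlier results of these data known. Rows were found by name or by approximate hg19 spans from general knowledge. A list gene without a name was kept only if its locus reached a width ratio of 0.9 to GENCODE v29 and passed an order check. The nearest named loci on each side had to start before and after the gene in GENCODE v29 as well. Whether they are its nearest neighbours there was not checked. Widths and gene order alone were taken from GENCODE v29. EIF2B5, PYCR1, PHGDH, CCPG1 and FGFR1 were not kept, nor were the markers KRT8, KRT5, KRT14, DCN, CD68 and PECAM1. Libraries were joined at 52318 loci of identical position, with 17 rows added where list genes had differing positions.

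FPKM is not a count, so limma 3.58.1 (R 4.3.3) was run on log2(FPKM + 1) with 2 groups and a variance trend; p-values are two-sided, with Benjamini-Hochberg adjusted values called under 0.05. Tested loci had the status OK in all 4 libraries and reached 1 FPKM in at least 2 of them. A log2 difference is on that scale, and a fold is a ratio of mean FPKM. Named are the 9 genes, CRYM, in each list the called members of smallest p, up to 6 (or the highest where none passes), the highest marker of each list and the 3 loci nearest in pattern to the tested gene of largest log2 difference, 1 of which is not reported here. ACPP, FOLH1, COL1A1, AARS, LARS, EIF2AK4, EIF2S1, ATF3, CTH, CBS, STC2, FGFR1, KLB, KL, GFRAL and RET were added after their values were seen. Relative depth was taken from the most common FPKM above 0 at loci of 60 bp, held by 16.0% to 20.4% of values and read as 1 fragment. Only 19.8% to 23.9% of the values were whole multiples of it, so this depth is a rough estimate. Fragments implied by intervals rest on the assumption that the intervals hold counting error only, which was not tested. At most of the 8 genes they did not follow FPKM. On simulated data with 10108 loci and 50 changed at each size, 44% of loci changed by 0.5 on the log2 scale were recovered, 72% of those changed by 1, 86% by 2 and 76% by 3, with 8 false calls beside 139 true ones. The 200 loci changed in the simulation all had a mean log2(FPKM + 1) above 2. In the data 1586 loci were called higher and 1793 lower, so the simulated rates need not hold there. Python 3.11.15, pandas 2.3.3 and bedtools 2.31.1 were used for the join. Alternatives covered the pseudocount, filter, scaling, variance model, replicate block, join, overlap and each library left out.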

Additional observations from a re-analysis of the deposited data

How the results depend on the processing

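The log2 differences of CRYM, the 8 genes and the GDF15-containing locus kept their direction under the settings tried; among other pathway genes, EIF2AK3 (-0.16), SLC38A2 (-0.38) and others changed sign with totals made equal, and CBS, AARS and LARS with quantile normalization. Leaving out any 1 library gave 0 calls for the genes, the pathway and the loci, lower or higher. The fit then has 1 residual degree of freedom and assumes that the lone library varies like the other group. The log2 differences ran from 5.0001 to 5.15 for CRYM, -0.37 to -0.22 for ATF4, -0.40 to -0.17 for DDIT3, -0.99 to -0.77 for TRIB3, -0.64 to -0.53 for ASNS, -1.23 to -1.06 for CHAC1, -0.53 to -0.43 for PSAT1, -1.15 to -1.04 for DDIT4, -1.23 to -1.09 for FGF21 and -1.89 to -1.74 for the GDF15-containing locus. The replicate block, which also leaves 1 residual degree of freedom, gave 0 calls everywhere (3830 loci at an unadjusted p under 0.05, smallest adjusted p 0.0564), with CRYM at 5.07, TRIB3 at -0.88, ASNS at -0.59, CHAC1 at -1.15, PSAT1 at -0.48, DDIT4 at -1.10, FGF21 at -1.16 and the GDF15-containing locus at -1.82, none past. Deviations of same-numbered libraries correlated at 0.0360, and nothing in the labels pairs them.

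Without the filter, 26493 loci were tested, with 793 higher and 1095 lower, and 1 pathway gene higher and 17 lower. With totals made equal, 298 loci were higher and 6270 lower, 0 pathway genes were higher and 48 lower, and ATF4 (-0.90) and DDIT3 (-0.88) passed; the part of the short loci in these totals was not tested. With the median ratio ATF4 passed (-0.37). At identical positions only, TRIB3 and CHAC1 have no row, 4 of the genes were lower and 1 pathway gene was higher, as was 1 with a join by mutual overlap. The filter on mean FPKM leaves out FGF21, and an overlap of at least 0.7 leaves out ATF4. Counting the GDF15-containing locus, chosen after seeing the data, gives 7 lower of 9. Depth limits FGF21 most, with 6 fragments implied in CRYM library 1.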

Other observations

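The fragments implied by the deposited intervals did not follow FPKM at the abundant genes. At the GDF15-containing locus they were 2197 and 2233 in CRYM cells and 2311 and 2321 in empty vector cells, although its mean FPKM differed 3.53-fold. PSAT1 had 2021 and 2072 implied fragments in CRYM cells and 2136 and 2170 in empty vector cells, and ATF4 had 2051 and 2105 in CRYM cells and 2128 and 2169 in empty vector cells. At CHAC1, with lower FPKM, they were 456 and 590 in CRYM cells and 1116 and 1357 in empty vector cells, a ratio of 0.476 at equal depth, and at FGF21 the ratio was 0.106. At TRIB3, ASNS and DDIT4 this ratio was 1.10, 0.891 and 0.857 in that order. Their ratios of mean FPKM, CRYM over empty vector, were 0.535, 0.662 and 0.466. At ATF4, DDIT3, PSAT1 and the GDF15-containing locus the fragment ratio at equal depth was 1.10, 1.04, 1.08 and 1.08 in that order. Among pathway genes called lower, the fragment ratio at equal depth was 1.94 for EIF2S2, 1.02 for PCK2 and 1.06 for GARS. It was 1.02 for SLC7A11 and 1.00 for HERPUD1, but 0.590 for JDP2, 0.558 for YARS and 0.677 for GADD45A. The cause of the mismatch was not tested.

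The co-receptor KL, alpha-klotho, was listed at 0.0264 and 0.0178 FPKM in CRYM cells and at 0.156 and 0.150 FPKM in empty vector cells, far below the level for testing. ACPP, the prostatic acid phosphatase, had 66.3 and 64.1 FPKM in CRYM cells and 8.61 and 7.93 FPKM in empty vector cells, the opposite direction to the luminal gene KLK3.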
